A study of Mus musculus with 27 samples.

Results

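The 9 genes described here mark T cells and natural killer (NK) cells: Cd3e, Cd3d, Cd3g, Cd4, Cd8a, Lck, Nkg7, Gzma and Ly9. They are the 9 entries, of 27304 in the deposited count table, that carry one of these symbols, and each symbol matched a single entry. All mice were male ApoE-/- animals of the C57BL/6J strain, examined 7 days after myocardial infarction, and all had first eaten a western diet for 4 weeks. The control mice stayed on that diet. In the chronic kidney disease (CKD) mice the diet then held adenine, first at 0.3% during 10 days and afterwards at 0.15% during 11 days, of which 4 preceded and 7 followed the infarction. Tissue came from the infarct and from remote myocardium of the same hearts, giving 6 infarct control, 7 infarct CKD, 6 remote control and 8 remote CKD libraries from 14 mice. Adenine in the diet damages the kidney tubules, so every CKD animal is a model of diet-induced kidney injury on top of a lipid-rich diet and the ApoE deficiency, which the controls share.

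A T cell recognises antigen through a receptor whose signalling part is the CD3 complex, built from the Cd3e, Cd3d and Cd3g chains together with the zeta chain Cd247. The coreceptors Cd4 and Cd8a bind MHC class II and class I molecules and bring the kinase Lck to the complex. NK cells and cytotoxic T cells carry granules that hold granzymes such as Gzma and the granule membrane protein Nkg7. Ly9 (Slamf3, CD229) is a receptor of the SLAM family, whose members bind each other between leukocytes. After an infarct, the lost muscle is cleared and replaced by scar, and lymphocytes enter a region dominated by macrophages and fibroblasts.

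Cd3g, Cd3d and Cd3e lie side by side in the mouse genome, and all 3 had higher levels in infarct than in remote tissue, while Gzma correlated least with the other members in the infarct. Their promoters are therefore shown, as the 250 bases before each RefSeq transcription start (GRCm38.p6), read 5′ to 3′ on the gene's strand. Cd3g occupies chr9:44980432-44980681 on the minus strand, Cd3d chr9:44981536-44981785 on the plus strand, Cd3e chr9:45009612-45009861 on the minus strand and Gzma chr13:113100982-113101231 on the minus strand. Capitals mark TGTGGT, a core of RUNX sites, and GGAAG, a core of ETS sites, each searched on both strands, so that ACCACA and CTTCC are the same letters on the other strand.
Cd3g: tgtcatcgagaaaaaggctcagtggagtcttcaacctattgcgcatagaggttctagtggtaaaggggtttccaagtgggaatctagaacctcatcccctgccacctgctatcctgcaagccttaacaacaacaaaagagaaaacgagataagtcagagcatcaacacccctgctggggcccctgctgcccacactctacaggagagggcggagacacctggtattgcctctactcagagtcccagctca
Cd3d: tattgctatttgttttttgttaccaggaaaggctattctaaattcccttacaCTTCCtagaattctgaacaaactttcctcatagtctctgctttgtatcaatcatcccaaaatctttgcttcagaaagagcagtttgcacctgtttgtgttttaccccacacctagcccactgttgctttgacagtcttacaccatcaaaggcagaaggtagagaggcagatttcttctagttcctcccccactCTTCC
Cd3e: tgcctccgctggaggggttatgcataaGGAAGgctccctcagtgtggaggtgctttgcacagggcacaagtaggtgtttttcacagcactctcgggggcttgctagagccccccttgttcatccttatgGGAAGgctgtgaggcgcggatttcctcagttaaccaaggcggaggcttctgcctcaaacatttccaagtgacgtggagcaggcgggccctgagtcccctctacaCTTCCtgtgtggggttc
Gzma: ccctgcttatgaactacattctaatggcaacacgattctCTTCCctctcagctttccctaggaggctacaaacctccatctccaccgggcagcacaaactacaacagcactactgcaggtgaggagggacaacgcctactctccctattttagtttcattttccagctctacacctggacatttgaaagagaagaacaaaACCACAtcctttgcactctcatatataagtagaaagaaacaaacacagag
The Cd3e window held 3 GGAAG matches, the Cd3d window 2, the Cd3g window 0 and the Gzma window 1, and of these 4 windows TGTGGT occurred once, in that of Gzma. Over all 32851 promoters of the same length, 64.1% held GGAAG and 14% held TGTGGT, so these matches describe the sequences and name no binding site. Windows were found for 7 of the 9 genes. Nkg7 held 3 GGAAG matches and 1 TGTGGT match, Cd8a held 2 GGAAG matches, and the 2 annotated Lck windows held 3 and 1 GGAAG matches, with TGTGGT in the first alone.

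The libraries held 14255456 to 42566498 counts each, and levels are given in CPM, counts relative to the library total after scaling with TMM factors. The counts behind these genes were small: in the 13 infarct libraries Cd3e had 3 to 62 counts and Ly9 15 to 1546, and in the 14 remote libraries Cd3e had 0 to 11 and Ly9 6 to 295. The 12 cardiomyocyte genes of the marker list were detected in every library. Their summed level ran from 4740 to 32154 CPM in infarct control, 30334 to 113099 in infarct CKD, 47835 to 112512 in remote control and 89381 to 115874 in remote CKD tissue. Infarct libraries of CKD mice 9172 and 9179 had mean cardiomyocyte log2 CPM of 12.14 and 12.45, within the range of the remote libraries other than that of control mouse 9180, which lay lowest of them at 11.25. Calls, correlations and ratios in infarct tissue are also given without the libraries of mice 9172 and 9179. Apoe, the gene deleted in all mice, still gave 9.85 to 34 CPM in the infarct libraries. In bulk tissue, fewer cells of a type and less RNA per cell cannot be told apart.

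The CD3 chains had their highest levels in infarct tissue of control mice. Cd3e ranged from 0.767 to 1.83 CPM in infarct control (median 1.27), from 0.164 to 0.988 in infarct CKD (median 0.815), from 0.0649 to 0.312 in remote control (median 0.255) and from 0 to 0.518 in remote CKD tissue (median 0.105). Every infarct control library lay above every remote library, whereas the lowest infarct CKD libraries, those of mice 9172 and 9179, lay inside the remote range. Cd3d ran from 0.931 to 2.34 CPM in infarct control (median 1.34) and from 0 to 1.58 in infarct CKD (median 1.07), against 0 to 0.624 in remote control (median 0.184) and 0.0423 to 0.363 in remote CKD (median 0.180).
For Cd3g the corresponding values were 1.10 to 2.71 CPM (median 1.91) in infarct control, 0 to 2.12 (median 1.44) in infarct CKD, 0 to 0.652 (median 0.313) in remote control and 0.0423 to 0.252 (median 0.173) in remote CKD tissue. The 2 zeros of Cd3d and Cd3g fell in the same libraries, infarct CKD mouse 9179 and remote control mouse 9184, where a count of 0 allows a level of up to 0.266 and 0.195 CPM. These limits, from 3 counts, cover counting error only. Cd3e had 0 counts in remote CKD mice 9173 and 9176, which allows up to 0.189 and 0.133 CPM.

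Cd4, which some macrophages and dendritic cells also carry, was the more abundant coreceptor in every library. Its level was 3.11 to 7.28 CPM in infarct control (median 5.47), 1.6 to 5.74 in infarct CKD (median 3.40), 0.908 to 4.36 in remote control (median 1.65) and 0.608 to 1.86 in remote CKD tissue (median 1.5). Ranges of neighbouring groups overlapped. Cd8a reached 1.06 to 3.57 CPM in infarct control (median 2.35), 0.355 to 2.38 in infarct CKD (median 1.36), 0 to 1.33 in remote control (median 0.261) and 0.0608 to 0.525 in remote CKD tissue (median 0.210). The remote value of 1.33 CPM came from mouse 9180. Counts of Cd4 exceeded those of Cd8a by a median of 2.51 times in infarct control and 2.70 times in infarct CKD, and by 9.5 and 5.5 times in remote control and remote CKD tissue. The remote control ratio rests on 5 libraries, without that of mouse 9182, which had 0 Cd8a counts. The other remote libraries held 1 to 47 Cd8a counts each.

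Lck, the kinase that phosphorylates the CD3 chains, gave 1.76 to 4.86 CPM in infarct control (median 3.32), 0.886 to 3.6 in infarct CKD (median 1.82), 0.390 to 1.59 in remote control (median 0.461) and 0.377 to 0.829 in remote CKD tissue (median 0.495). It was the single member whose infarct range lay wholly above the remote range in both diets. Among the remote libraries, 12 of 14 lay at or below 0.519 CPM, and the other two were control mouse 9180 and CKD mouse 9174.

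Of the cytotoxic genes, Nkg7 followed the CD3 chains and Gzma did not. Nkg7 had 1.25 to 3.95 CPM in infarct control (median 1.89), 0.383 to 2.52 in infarct CKD (median 1.54), 0.0649 to 1.47 in remote control (median 0.401) and 0.0629 to 0.466 in remote CKD tissue (median 0.161). Gzma, a granzyme with trypsin-like activity, had 0.613 to 2.81 CPM in infarct control (median 1.17), 0.532 to 6.65 in infarct CKD (median 1.28), 0.260 to 1.67 in remote control (median 0.542) and 0.127 to 1.01 in remote CKD tissue (median 0.431). The infarct value of 6.65 CPM, or 161 counts, came from CKD mouse 9177, and the next CKD library stood at 1.75 CPM.

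Ly9 was the most abundant member. It ranged from 13.5 to 45.6 CPM in infarct control (median 26.9), from 1.33 to 52.2 in infarct CKD (median 17.8), from 0.909 to 8.36 in remote control (median 2.0) and from 0.375 to 1.54 in remote CKD tissue (median 1.20). The widest spread was within infarct CKD tissue, between mouse 9179 and mouse 9175. Per kilobase of exon, the mean level of Ly9 in infarct control tissue was 8.52 CPM, against 2.60 for Nkg7, 1.38 for Cd4, 1.32 for Gzma, 1.15 for Lck, 0.804 for Cd3d, 0.624 for Cd8a, 0.580 for Cd3g and 0.306 for Cd3e. These lengths are exon unions of the GENCODE M21 annotation, which is not the annotation behind the counts.

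**Figure D1:**
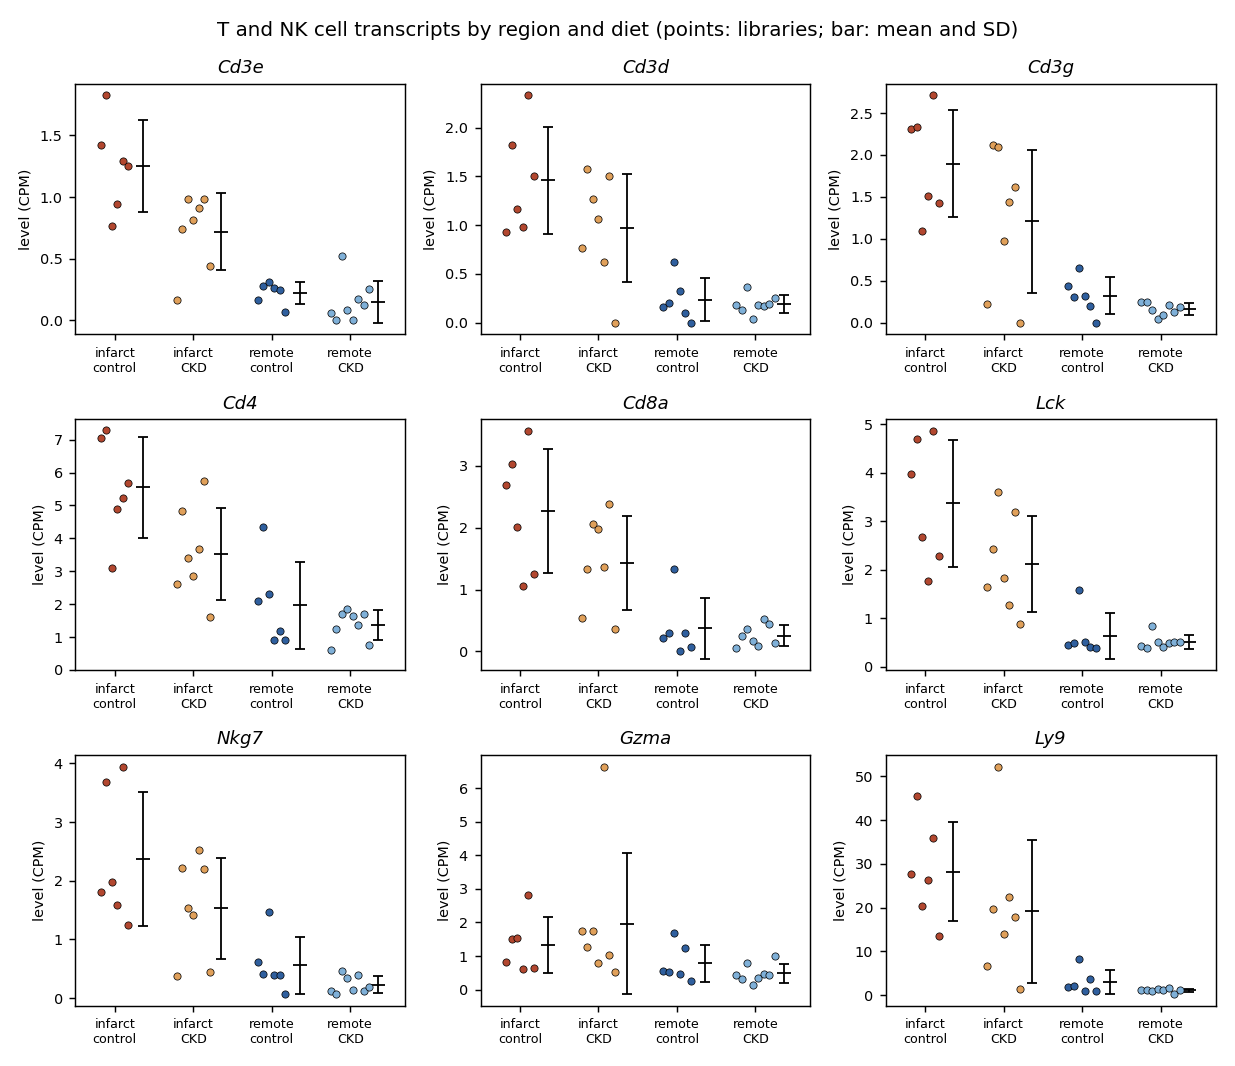
Level of each gene in CPM (vertical axis, linear, separate scale per gene) in the 4 groups of region and diet. Each point is a library, and the bar beside each group gives the mean and SD of its 6 to 8 libraries. Infarct groups lie above remote groups for most genes, and the Gzma library at 6.65 CPM and the Ly9 library at 52.2 CPM stand apart in infarct CKD tissue.

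In order of group means, 8 of the 9 genes ran from infarct control through infarct CKD and remote control to remote CKD tissue. For Cd3e the means were 1.25 ± 0.373, 0.721 ± 0.309, 0.222 ± 0.0906 and 0.152 ± 0.171 CPM (SD, n = 6, 7, 6 and 8), and for Ly9 they were 28.2 ± 11.3, 19.1 ± 16.4, 3.0 ± 2.81 and 1.15 ± 0.358 CPM. Gzma alone had its highest mean in infarct CKD tissue, 1.97 ± 2.11 CPM against 1.32 ± 0.835 in infarct control. That mean rested on mouse 9177, without which it was 1.19 ± 0.499 CPM (SD, n = 6) and the order was that of the other 8. Neighbours in these orders had overlapping ranges for all 9 genes. The gap between neighbouring means exceeded the sum of their SDs only between infarct CKD and remote control tissue, for Cd3e and Lck.

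The first comparison asked how the infarct differed from remote tissue within each diet. In control mice, 8 of the 9 genes were higher in the infarct, and Gzma did not pass the test. Across all genes tested, 63.9% passed in either direction and 30.7% were higher in the infarct. Log2 fold changes (± SE) in control mice were 2.41 ± 0.48 for Cd3e, 2.5 ± 0.53 for Cd3d, 2.48 ± 0.55 for Cd3g, 2.45 ± 0.57 for Cd8a, 2.34 ± 0.36 for Lck, 2.02 ± 0.49 for Nkg7, 1.46 ± 0.34 for Cd4 and 3.18 ± 0.56 for Ly9. Adjusted p-values of edgeR's quasi-likelihood test lay between 1.77e-05 for Lck and 0.000987 for Nkg7. Gzma differed by 0.72 ± 0.54 with an adjusted p of 0.243 in the same edgeR test. The median of the 9 genes was 2.41, beside -0.01 over all genes.

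In CKD mice all 9 genes were higher in the infarct, including Gzma at 2.04 ± 0.51 (edgeR, adjusted p = 0.00297). Without the infarct library of mouse 9177, Gzma still passed at 1.31 ± 0.44 (edgeR, adjusted p = 0.0212). The background there was 45% of genes passing in either direction and 24.7% higher. Ly9 had a log2 fold change of 4.04 ± 0.53, Cd3g 2.91 ± 0.55, Nkg7 2.68 ± 0.49, Cd8a 2.47 ± 0.54, Cd3d 2.38 ± 0.50, Cd3e 2.23 ± 0.47, Lck 2.07 ± 0.33 and Cd4 1.37 ± 0.32. The fit included genes that reach enough counts in the infarct libraries alone, which applies to low members such as Cd3e, so these counts of called genes were also taken with no filter on low counts. Without that filter, the same 8 and 9 genes passed, beside 45.5% and 29.9% of all genes. Gzma passed in CKD and not in control mice, and the test of that difference did not pass (log2 difference 1.32 ± 0.74, edgeR, adjusted p = 0.339, and 0.59 ± 0.62, adjusted p = 0.659, without the infarct library of mouse 9177).

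Complete separation of the groups was less frequent. In control mice the infarct and remote ranges did not overlap for 5 of the 9 genes (Cd3e, Cd3d, Cd3g, Lck and Ly9), beside 16.3% of all genes higher in the same way. In CKD mice this held for Lck alone, beside 1.16% of all genes. Without the infarct libraries of mice 9172 and 9179 it held in CKD mice for 8 of the 9, all but Gzma, beside 17.1% of all genes. Without the remote library of mouse 9180 it held in control mice for 7 of the 9, all but Cd4 and Gzma, beside 23.1%.

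Within single hearts the direction was nearly uniform. In control mice, 8 of the genes were higher in the infarct of all 6 hearts and Gzma in 5, and for each of the 9 genes mouse 9180 showed the smallest difference. In the 7 CKD hearts with both regions, Cd3e, Cd4, Cd8a, Lck, Nkg7 and Ly9 were higher in the infarct in 7, Cd3d and Gzma in 6 and Cd3g in 5. For Ly9 the median difference within a heart was 3.79 log2 units in control and 3.78 in CKD mice, and for Cd4 it was 1.88 and 1.37. The smallest Ly9 difference in CKD mice, 0.14, was that of mouse 9179. The leukocyte gene Ptprc was likewise higher in the infarct of all 6 control hearts and of 6 of the 7 CKD hearts. The share of all genes with such a uniform direction was not counted, so these counts describe the 9 genes without a background.

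**Figure D2:**
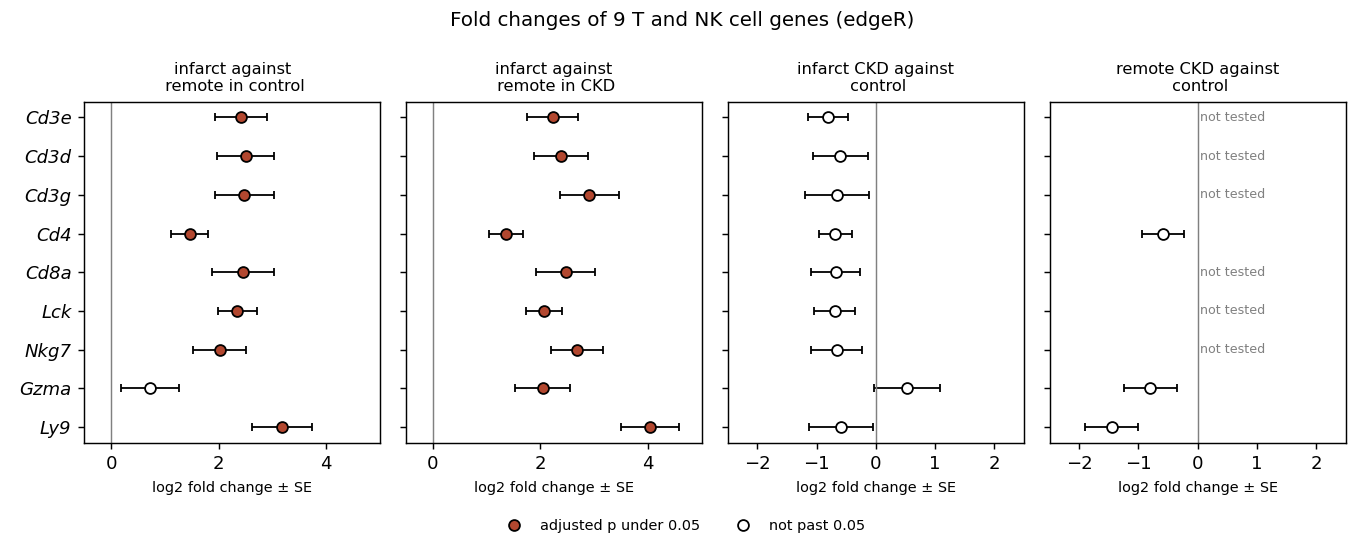
Log2 fold changes with SE (horizontal axis) of the 9 genes in the comparisons of region and of diet, from edgeR. Filled points have an adjusted p under 0.05, open points do not, and genes with too few counts in remote tissue are marked as not tested. The region comparisons hold filled points at 1.37 to 4.04, while every point of the diet comparisons is open.

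The second comparison asked whether CKD changed these genes in the infarct. None of the 9 passed the edgeR test, beside 20.3% of all 14358 genes. Of the 9, Cd3e and Cd4 had unadjusted edgeR p-values under 0.05, beside 5765 of the 14358 genes. Most values lay on the lower side: 8 of 9 log2 fold changes were negative with a median of -0.66, beside 51.6% negative and a median of -0.02 over all genes. These backgrounds also hold for the other lists below wherever CKD is compared with control in the infarct. Cd3e stood at -0.81 ± 0.33 (edgeR, adjusted p = 0.0901) and Cd4 at -0.68 ± 0.27 (edgeR, adjusted p = 0.0843).
Lck followed at -0.70, Cd8a at -0.68, Nkg7 at -0.66, Cd3g at -0.65, Cd3d at -0.60 and Ly9 at -0.59, with adjusted p-values of 0.139 to 0.424 by edgeR. Gzma stood at 0.53 ± 0.56 (edgeR, adjusted p = 0.483), and without CKD mouse 9177 at -0.19. Infarct control and CKD ranges overlapped for all 9 genes, beside 1.39% of all genes lying wholly lower with CKD. limma-voom called none of the 9. DESeq2 called Cd3e and Cd4 lower, both with an adjusted p of 0.0467, beside 31.7% of all genes, and edgeR without CKD mouse 9178 called Cd4 (adjusted p = 0.0434), beside 19.9%.

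The 2 CKD libraries with remote-like cardiomyocyte levels held the lowest values of several genes. Without mice 9172 and 9179 the 8 negative values shrank to between -0.23 and -0.55, Gzma stood at 0.71, and no gene of the whole table passed. With the mean cardiomyocyte log2 CPM as a covariate, Cd3e and Cd4 shrank from -0.81 and -0.68 to -0.25 and -0.29, whereas Cd3d (0.21), Cd3g (0.16), Cd8a (0.15), Lck (0.05), Nkg7 (0.40) and Ly9 (0.49) turned positive, and no gene of the table passed. That covariate ran from 7.65 to 10.71 in infarct control and from 10.61 to 12.45 in infarct CKD libraries. It thus nearly separated the diets, so this fit cannot tell diet and cardiomyocyte level apart. The background of 20.3% rested on single libraries too: it fell to 0 genes without any 1 of infarct control mice 9171, 9182 and 9183 or CKD mice 9172 and 9177. In that comparison 6 of the 12 cardiomyocyte genes were higher in CKD (median 1.38), and 1 of the 8 fibroblast and scar genes was lower (median -1.14).

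In remote myocardium only Cd4, Gzma and Ly9 had enough counts for the test, and the other six did not pass the filter. None of the 3 passed in edgeR, DESeq2 or limma-voom, beside 0.0216% of all genes in edgeR. Ly9 alone had an unadjusted edgeR p under 0.05, beside 1626 of the 13902 genes tested. Ly9 stood at -1.45 ± 0.45 (edgeR, adjusted p = 0.288), Gzma at -0.80 (adjusted p = 0.498) and Cd4 at -0.58 (adjusted p = 0.546). The Ly9 value was -0.76 without the remote library of control mouse 9180 and -0.34 with the cardiomyocyte covariate. Its ranges, 0.909 to 8.36 CPM in control and 0.375 to 1.54 CPM in CKD mice, overlapped, as did those of the other 2, beside 0.0935% of all genes lying wholly lower with CKD.

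The difference between the CKD effects in infarct and remote tissue did not pass for any of the 9 genes, beside 0% of all genes by edgeR, with 2787 of 14770 at an unadjusted p under 0.05. It ranged from -0.28 for Lck to 1.32 for Gzma on the log2 scale, and none of the 9 had an unadjusted edgeR p under 0.05. DESeq2 called 10 genes of the table, gave no adjusted p for 8 of the 9 and gave 0.502 for Ly9.

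Other genes of the T cell receptor pathway were examined as a list of 20, of which 17 had an entry and 13 enough counts. In the infarct of control mice 10 were higher and 1 lower than in remote tissue, with a median of 1.80, and in CKD mice 9 were higher and 1 lower. Fyb, an adaptor downstream of the receptor, differed by 2.15, Lcp2 (SLP-76) by 2.05 and Cd6, a T cell surface receptor, by 2.08 in control mice (edgeR, adjusted p = 2.27e-05, 6.01e-05 and 6.96e-05). Fyb and Lcp2 averaged 31.9 and 21.2 CPM in infarct control tissue, against 1.02 for Cd6. Which cell types gave the Fyb and Lcp2 transcripts was not tested. Fyn, a Src kinase of many tissues, was lower in the infarct by a small amount (-0.28 in control and -0.27 in CKD mice, edgeR, adjusted p = 0.0238 and 0.0227).
Cd247, the zeta chain that completes the CD3 complex, did not move with the other chains: it gave 1.63, 1.73, 1.70 and 1.95 CPM on average in infarct control, infarct CKD, remote control and remote CKD tissue, and its region difference of -0.07 in control mice had an adjusted p of 0.838 by edgeR. It was named after its values were seen. With CKD in the infarct, none of the 13 passed in edgeR, and 12 were negative with a median of -0.55. Of the 13, 3 had an unadjusted edgeR p under 0.05, beside 5765 of 14358 over all genes. Smallest p-values were those of Cd6 (-0.82, edgeR, adjusted p = 0.0575) and Skap1 (-0.94, adjusted p = 0.0672), which DESeq2 and limma-voom called lower.

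Among 14 tested genes of T cell identity and cytokine receptors, 8 were higher and 3 lower in the infarct of control mice. Cd8b1, the partner chain of Cd8a and its genomic neighbour, was higher by 2.73 and Il2rb, a receptor chain for IL-2 and IL-15, by 2.26 (edgeR, adjusted p = 8.76e-05 and 0.000129). In CKD mice 7 were higher and 0 lower. None of the 13 tested passed in edgeR in the infarct with CKD, where DESeq2 called Cd27 and Tcf7 lower.

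Of 12 tested NK and granule genes, 9 were higher and 1 lower in the infarct of control mice, and 11 and 1 in CKD mice. Ccl5, a chemokine of activated T and NK cells, differed by 2.21 and Serpinb9, an inhibitor of granzyme B, by 0.89 in control mice (edgeR, adjusted p = 0.0001 and 6.88e-05). Gzmm, another granzyme, went the opposite way to Nkg7. It was lower in the infarct by -2.51 in control and -1.26 in CKD mice (edgeR, adjusted p = 2.38e-05 and 0.00616), and higher by 1.66 in CKD than in control infarct tissue (adjusted p = 0.0348). Serpinb9 was lower by -0.63 in that last comparison (edgeR, adjusted p = 0.0348). Both calls were lost without mice 9172 and 9179, when no gene of the table passed.

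Ly9 belongs to the SLAM family, whose other genes were examined as a list. All 8 tested members of 10 were higher in the infarct in control mice (median 2.39) and in CKD mice (median 2.59). Cd48, the ligand of Cd244a, differed by 2.35, Cd84, a self-binding receptor of myeloid cells and lymphocytes, by 2.77 and Cd244a by 1.98 in control mice (edgeR, adjusted p = 6.24e-05, 6.89e-05 and 0.00014). Ly9 lies between Cd244a and Slamf7 in the genome. With CKD in the infarct, none of the 8 passed in edgeR, all were negative, and the median was -0.58. The smallest p-values were those of Slamf6 (-1.09, edgeR, adjusted p = 0.0694), which had the single unadjusted p under 0.05 and was called lower by DESeq2, and Sh2d1b1, an adaptor of SLAM receptors (-0.75, adjusted p = 0.272).

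Of 11 T cell homing genes, 9 were higher and 1 lower in the infarct of control mice, and 7 and 1 in CKD mice. Cxcl16, the ligand of Cxcr6, differed by 2.14 and Ccr7, a receptor for Ccl19 and Ccl21a, by 2.66 in control mice (edgeR, adjusted p = 3.26e-05 and 6.24e-05). S1pr1, which endothelial cells also express, was the lower member, at -0.75 and named after its values were seen (adjusted p = 9.7e-05 by edgeR). None of the 11 passed in the infarct with CKD in edgeR, DESeq2 or limma-voom, 0 had an unadjusted p under 0.05, and 10 were negative.

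Set against Ptprc (CD45), which all leukocytes carry, the CD3 chains and Lck did not separate the groups. The 3 CD3 chains together gave 10.8 ± 2.10 counts per 100 Ptprc counts in infarct control, 9.12 ± 2.87 in infarct CKD, 8.73 ± 5.15 in remote control and 7.15 ± 3.66 in remote CKD tissue (SD, n = 6, 7, 6 and 8). Lck gave 7.69 ± 1.84, 7.74 ± 2.75, 6.84 ± 1.67 and 7.26 ± 2.03 in the same order. The ranges of all 4 groups overlapped for these ratios. Infarct CKD tissue gave 10.3 ± 2.58 for the CD3 chains and 6.54 ± 1.88 for Lck without mice 9172 and 9179 (SD, n = 5). Ptprc itself ran from 32.2 to 53.0 CPM in infarct control, 7.09 to 54.0 in infarct CKD, 5.26 to 22.5 in remote control and 5.81 to 8.05 in remote CKD tissue.
Ly9 had a higher mean ratio in infarct than in remote tissue. It gave 64.2 ± 16.2 and 53.3 ± 24.8 counts per 100 Ptprc counts in infarct control and CKD, and 28.2 ± 9.5 and 16.2 ± 4.68 in remote control and CKD tissue, with no overlap between infarct and remote ranges in control mice. In infarct CKD tissue it gave 63.5 ± 20.6 without mice 9172 and 9179 (SD, n = 5). Gzma gave 3.0 ± 1.58 in infarct control against 8.14 ± 2.60 in remote control tissue, and in CKD mice its means were close, at 6.79 ± 5.42 and 6.97 ± 3.76. The infarct CKD value of Gzma was 6.10 ± 6.44 without mice 9172 and 9179 (n = 5) and 5.0 ± 2.85 without mouse 9177 (n = 6). Cd4 also had lower mean ratios in the infarct, 13.2 ± 3.49 and 13.3 ± 4.97 in control and CKD against 25.6 ± 22.9 and 19.9 ± 7.87 in remote tissue, with overlapping ranges. The remote control mean of Cd4 included a ratio of 70.6 in mouse 9171. Median Cd4 ratios were 13.6 and 13.2 in infarct control and CKD, against 16.4 and 20.9 in remote control and CKD tissue. Cd4 in infarct CKD tissue gave 11.2 ± 3.21 without mice 9172 and 9179 (n = 5). These ratios are descriptions and were not tested.

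**Figure D3:**
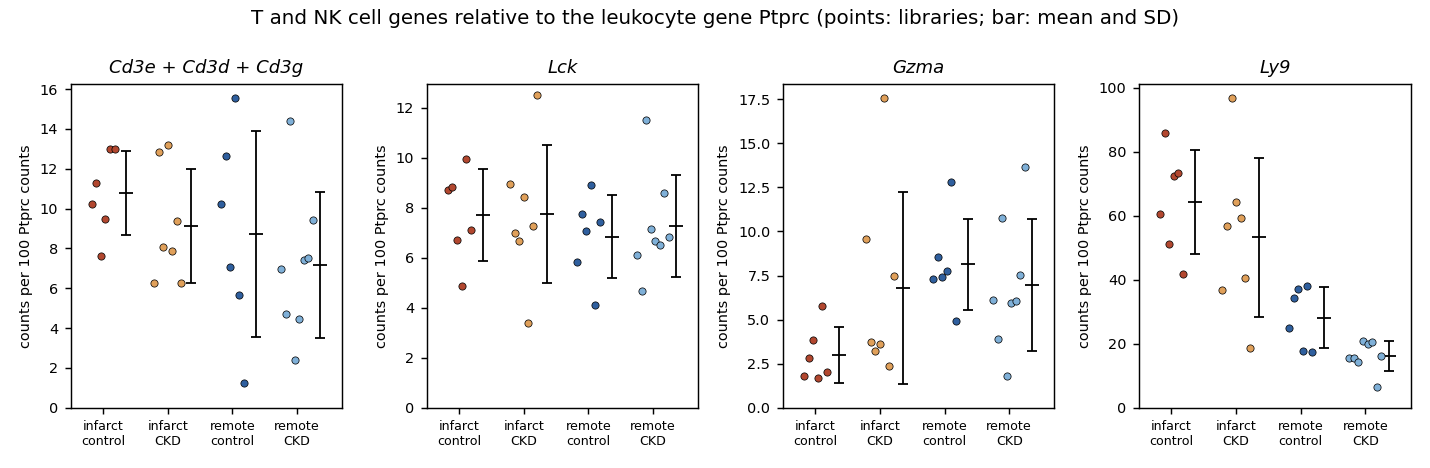
Counts of the 3 CD3 chains together, Lck, Gzma and Ly9 per 100 counts of Ptprc (vertical axis, linear), by library, with mean and SD beside each group. The CD3 and Lck ratios overlap across the 4 groups, with CD3 means of 7.15 to 10.8, while Ly9 means run from 16.2 in remote CKD to 64.2 in infarct control tissue.

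Ly9 also differed from Cd3e in the transcripts it varied with. Over the 13 infarct libraries, its log2 CPM correlated at r = 0.985 with the mean of 10 macrophage and monocyte genes and at 0.837 with that of the T cell receptor list. Without mice 9172 and 9179 these values were 0.940 and 0.568 (n = 11). For Cd3e they were 0.621 and 0.862, and 0.395 and 0.812 without those mice. The 5 genes most like Ly9 in the infarct, chosen after its values were seen, were Ctss (r = 0.994), AB124611 (0.994), Pla2g7 (0.993), Hvcn1 (0.993) and Vav1 (0.992). Without mice 9172 and 9179 these 5 correlated with Ly9 at 0.968 to 0.977 (n = 11), and other genes ranked first, led by Cd84 (0.989), a SLAM family receptor. Ctss, a lysosomal protease of antigen-presenting cells, ran from 21.1 to 1600 CPM in infarct CKD tissue and was highest in mouse 9175, as Ly9 was.
All these points share depth and the cardiomyocyte share of their library, so the correlations are descriptions. All 10 macrophage genes were detected in every library. Their summed level was 2128 to 4891 CPM in infarct control, 572 to 7251 in infarct CKD, 453 to 1685 in remote control and 476 to 932 in remote CKD tissue. Between infarct CKD and control, 0 of the 10 passed in edgeR or DESeq2 and 0 had an unadjusted p under 0.05, with a median of -0.37. Per 1000 counts of these genes, Ly9 gave 7.86 ± 1.07, 5.77 ± 1.87, 3.15 ± 1.24 and 1.78 ± 0.618 in infarct control, infarct CKD, remote control and remote CKD tissue, so that its proportion to them was not constant between the regions. The infarct CKD value was 6.81 ± 0.433 without mice 9172 and 9179 (SD, n = 5). Over the 13 infarct libraries Cd3g (0.923 and 0.879), Cd3d (0.846 and 0.714) and Gzma (0.448 and 0.293) also had a higher Pearson r with the macrophage than with the T cell receptor list, while the rank correlations of Cd3d ran the other way (0.451 and 0.577). Without mice 9172 and 9179 the higher Pearson r held for Ly9 and, at 0.412 and 0.223, for Gzma, and for none of the other members. Rank correlations without those mice were higher with the macrophage list for Ly9 (0.927 and 0.582) and Gzma (0.573 and 0.300). They were also higher for Nkg7 (0.509 and 0.364) and Cd3g (0.709 and 0.691), and lower for the other members. On these values Ly9 did not keep to its label of a T and NK cell gene, and which cell type gave its transcripts was not tested.

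**Figure D4:**
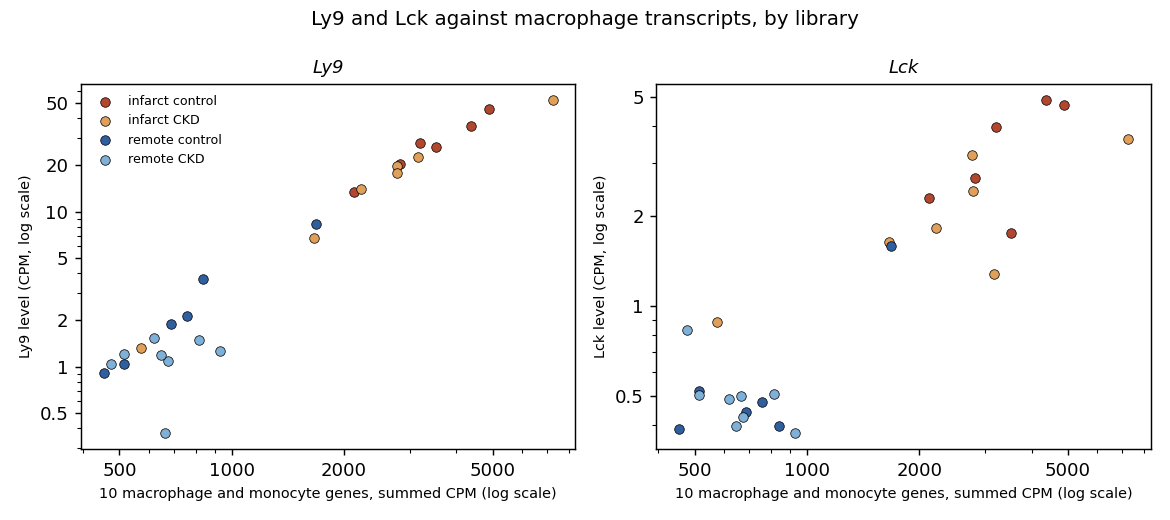
Level of Ly9 and of Lck (vertical axes, CPM, log scale) against the summed level of 10 macrophage and monocyte genes (horizontal axis, CPM, log scale), with a point for each of the 27 libraries. Ly9 lies close to a line across the infarct libraries, and the infarct library of CKD mouse 9179 lies among the remote libraries at 1.33 CPM.

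The members other than Gzma were correlated in the infarct, and less so without mice 9172 and 9179. Over the 13 infarct libraries, the 28 pairs among the other eight correlated at r = 0.509 to 0.946 (median 0.778), and the 8 pairs with Gzma at 0.0247 to 0.423 (median 0.272), on 6 to 161 Gzma counts a library. Without mice 9172 and 9179 the 28 pairs correlated at 0.22 to 0.839 (median 0.504) and the 8 pairs with Gzma at -0.247 to 0.605 (median 0.0689), over 11 libraries. Over all 27 libraries, the genes whose log2 CPM was most like the mean of the 9 were Il10ra (r = 0.973), Pik3r5 (0.971), Ms4a4b (0.970), Ccl5 (0.970) and Ptprc (0.969). Without the infarct libraries of mice 9172 and 9179 and the remote library of mouse 9180, these 5 correlated at 0.968 to 0.974 (n = 24). Over the 13 infarct libraries they were Flt3 (0.983), Prex1 (0.968), Il10ra (0.968), Tifa (0.965) and Aif1 (0.962). Flt3 still ranked first, at 0.929, without mice 9172 and 9179, the other four stood at 0.808 to 0.872 (n = 11), and none of those was among the first 5. Il10ra is the ligand-binding chain of the IL-10 receptor of leukocytes, Flt3 a receptor of dendritic cells and their precursors, and Aif1 (IBA1) a macrophage protein.

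Markers of other leukocytes were measured alongside. The immature T cell genes Rag1 and Rag2 had 0 counts in 23 and 26 of the 27 libraries and at most 2 counts in any, and Dntt and Ptcra had 0 counts in 14 and 12. Arpp21, of the same list, averaged 0.307, 0.733, 0.693 and 0.783 CPM in infarct control, infarct CKD, remote control and remote CKD tissue. It was lower in the infarct of control mice (-1.12, edgeR, adjusted p = 0.045). With CKD in the infarct it stood at 1.22 (edgeR, adjusted p = 0.0751), and DESeq2 called it higher, beside 31.7% of all genes called. The 7 B and plasma cell genes summed to 8.93 to 48.0 CPM in infarct control, 7.54 to 75.0 in infarct CKD, 3.33 to 11.9 in remote control and 2.63 to 11.2 in remote CKD tissue. The 7 dendritic cell genes summed to 33.5 to 54.9, 27.4 to 134, 29.3 to 38.8 and 28.5 to 37.4 CPM in the same order. No gene of either list passed in edgeR or DESeq2 with CKD in the infarct, and 0 had an unadjusted p under 0.05. All 6 pan-leukocyte genes were higher in the infarct than in remote tissue in both diets (medians 2.18 and 2.41), as were all but 1 of the 10 macrophage genes, and the part of overall leukocyte content in the levels of the 9 genes was not tested beyond the ratios to Ptprc.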

How the data were processed

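The deposited table holds whole-number read counts per gene for 27 libraries, a unit taken from the values. The tool kallisto 0.48.0 and the build GRCm39 are named per the submitters' processing notes, and the step from its estimates to gene counts is not given in the sources used here. Per the labels' protocols, total RNA was made into NEBNext Ultra II libraries. The remote library of mouse 9179 is CKD by title and control by treatment label, and was placed in CKD. Replicates are separate mice.

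From these counts, genes were filtered with filterByExpr, scaled by TMM factors (0.79 to 1.38) and tested with edgeR 4.0.16 (R 4.3.3, quasi-likelihood, Benjamini-Hochberg over all genes tested, threshold 0.05). CKD was compared with control on the libraries of each region alone. Region comparisons and the difference of effects used all 27 libraries with 4 group means. Both regions of a heart form a pair by design, and residuals of the 13 pairs correlated at a median of 0.211 (-0.139 to 0.455). Correlations used log2 CPM with a prior count of 2. SE is the fold change divided by the root of F.

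Alternatives were other scalings, DESeq2 1.42.0 and limma-voom (limma 3.58.1) as other tests, dropping the filter or requiring a mean of 1 CPM, the mouse as a block, a cardiomyocyte covariate, another placing of mouse 9179 and leaving out libraries. Scripts were tested on simulated data. The table's 27 symbols turned into dates were renamed. The 9 genes and the 14 other lists were chosen with earlier results of these data known. Of 152 listed genes 146 were found, and the other six (Trac, Trbc1, Trbc2, Trdc, Tcrg-C1 and Ighm) were not analysed here. Named genes are the 9, Ptprc, Apoe and, per list and comparison, a selection from up to 3 called genes, or 2 where none was called, with the smallest p, plus the 5 genes most like the mean of the 9. Cd247, Fyn, S1pr1, Cd27 and Tcf7 were named after their values were seen where this rule does not give them. A few listed genes are counted in their lists and not reported by name here. Promoter sequences are from RefSeq (GRCm38.p6).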

Additional observations from a re-analysis of the deposited data

Results flagged for a closer look

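In 7 of the 36 groups of libraries formed by the 9 genes and the 4 groups, the highest or lowest library lay far from the others by Dixon's criterion, which chance alone meets in about 1 of 20 groups. Of these, 3 were the remote library of control mouse 9180, at 1.332 CPM for Cd8a, 1.587 CPM for Lck and 8.362 CPM for Ly9, and that library also had the lowest mean cardiomyocyte log2 CPM of the remote libraries. Lck stood at 0.8291 CPM in the remote library of CKD mouse 9174, against 0.508 in the next. Gzma stood at 6.646 CPM in the infarct library of CKD mouse 9177, against 1.749 in the next. Ly9 stood at 52.21 CPM in the infarct library of CKD mouse 9175, against 22.37 in the next. Ly9 was low, at 0.3749 CPM, in the remote library of CKD mouse 9178, which held 6 counts of it.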

How the results depend on the processing

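The region calls kept their direction and their side of the threshold in every alternative run in which a gene was tested. For CKD in the infarct, the count of called members was 0, rose to 2 with DESeq2 and lay between 0 and 1 when single libraries were left out. With the cardiomyocyte covariate, values turned positive for Cd3d (0.21), Cd3g (0.16), Cd8a (0.15), Lck (0.051), Nkg7 (0.40) and Ly9 (0.49), and with the covariate while mice 9172 and 9179 were left out, a setting chosen after seeing the data, they were 0.15, 0.13, 0.12, 0.021, 0.36 and 0.44. The covariate nearly separated the infarct libraries by diet, so fits with it cannot tell diet and cardiomyocyte level apart. Gzma ran from -0.19 to 0.90 when single libraries were left out. For the difference of the CKD effects, which passed in no setting, signs turned with limma-voom for Cd3e (0.23), Cd3g (-0.36) and Cd8a (-0.53), and without mice 9172 and 9179 for Cd3e (0.11), Cd3d (0.18) and Cd4 (0.13). Cd8a, at 0.01, turned to -0.026 with DESeq2, -0.074 and -0.20 with the remote library of mouse 9179 left out or counted as control, -1.04 without remote control mouse 9180 and -0.45 with the mouse as a replicate block. Leaving out single libraries gave -0.39 to 0.40 for Cd3e, -0.75 to 0.10 for Cd3d, -0.52 to 0.056 for Cd4 and -1.04 to 0.30 for Cd8a. The cause of these turns was not tested. The block changed no call of the 9 genes. Over all genes, CKD in the infarct gave 2908 calls, against 1926 with no filter, 4557 with DESeq2, 5067 in the fit of all 27 libraries and 0 with the covariate, and in remote tissue 3 against 97 with DESeq2. Low counts of these genes limit the remote values, where 6 of the 9 genes were too low to test. Correlations and ratios without mice 9172, 9179 and 9180, and Gzma levels without mouse 9177, were also chosen after seeing the data.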
